A study of Rattus norvegicus with 24 samples.

Results

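Metabotropic glutamate receptors are 6 of the 32545 genes with values in these 24 libraries: Grm2, Grm3, Grm4, Grm5, Grm7 and Grm8. They were picked by gene name rather than by a threshold on expression, with earlier results of these data known. The nucleus accumbens (NAc), core and shell together, of adult male Sprague Dawley rats was studied by RNA-seq, with 1 rat per library and 4 libraries in each of 6 groups. The study asked how a history of immune stimulation meets exposure to heroin, and how injected heroin compares with heroin that rats take themselves. In the injection experiment, rats received 5 intraperitoneal injections of lipopolysaccharide (LPS, a bacterial cell wall component that provokes an immune response) at 250 µg/kg or of saline over a period of weeks. They then received heroin, rising from 1 to 5 mg/kg, or saline once a day for 5 days. Groups were named by the first and the second treatment: LPS-Heroin, Saline-Heroin, LPS-Saline and the controls, Saline-Saline. In the self-administration (SA) experiment, rats with a jugular catheter worked for infusions of heroin at 0.075 mg/kg (Heroin-SA) or of saline (Saline-SA) for 6 h a day in 10 sessions. No rat of the SA experiment received LPS. The labels name no engineered allele, and each experiment was run once. SA rats were housed singly on a reversed light cycle and killed straight after the last session. Injected rats were housed in pairs on a normal light cycle and killed after a delay that followed the last injection, and the labels and the study's methods differ on that delay and on the pause between LPS and heroin. The 2 experiments therefore differ in route, surgery, housing, light cycle and time of killing at once.

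Between 12312878 and 18850240 reads fell on genes in each library, and mitochondrial genes held 6.82% to 9.10% of them in the injection experiment and 10.0% to 15.9% in the SA experiment. The 10 markers of striatal medium spiny neurons, Drd1 and Drd2 among them, were present throughout and summed to between 1228 and 3266 FPKM (fragments scaled to gene length and to the library's total). Markers of neighbouring tissue differed in level between libraries. The summed level of 8 cortical glutamatergic markers ran from 54.3 to 452 FPKM, and 6 choroid plexus markers summed to 334 FPKM in Saline-Saline replicate 1 against 1.74 to 32.5 FPKM elsewhere. In tissue of mixed cells, fewer cells of a type and less RNA per cell cannot be told apart.

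Metabotropic glutamate receptors are G protein-coupled receptors that tune glutamate synapses rather than carry fast current. Group I, with Grm5, acts through Gq, phospholipase C and calcium release, sits mostly around the postsynaptic density and is tethered there by Homer proteins, whereas group II (Grm2 and Grm3) and group III (Grm4, Grm6, Grm7 and Grm8) act through Gi and Go, lower cyclic AMP and often restrain glutamate release from nerve terminals. In the NAc, Grm5 on medium spiny neurons drives endocannabinoid release and long-term depression, and group II receptors on cortical inputs limit glutamate overflow, so both have been studied in relapse to drug seeking.

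The genes differ widely in how much of the chromosome they cover. In the coordinates listed with the values (build rn6), Grm2 (ENSRNOG00000013171, chromosome 8, 115344999 to 115358046, minus strand) covers 13.05 kb and Grm4 (ENSRNOG00000000487, chromosome 20, 6745744 to 6791519, minus strand) 45.8 kb. Grm3 (ENSRNOG00000005519, chromosome 4, 21317695 to 21560490, plus strand) covers 243 kb and Grm5 (ENSRNOG00000016429, chromosome 1, 151439409 to 151783392, plus strand) 344 kb. Grm7 (ENSRNOG00000005662, chromosome 4, 142780987 to 143367578, plus strand) covers 587 kb and Grm8 (ENSRNOG00000021468, chromosome 4, 54474136 to 55407922, minus strand) 934 kb. Grm4 overlaps Ppil1 on the same strand, Grm8 overlaps SNORA73 and Mir592 on the same strand, and Grm7 overlaps U6 and LOC100362643 on the opposite strand. Strand cannot assign reads in the overlaps of Grm4 and Grm8, and whether counting used the strand is not given in the sources used here. The reads of Grm4, Grm7 and Grm8 are therefore less certain than those of the other 3 members. RefSeq promoters (build GRCr8) were matched for 3 of the 6 members, and the 250 bases before each start are printed for these 3, Grm5, Grm7 and Grm8, since no others were matched. They lie at chr1:150733503-150733752 on the plus strand for Grm5, at chr4:145286476-145286725 on the plus strand for Grm7 and at chr4:57687507-57687756 on the minus strand for Grm8. Sequences run 5′ to 3′ and capitals mark a GC box.
Grm5: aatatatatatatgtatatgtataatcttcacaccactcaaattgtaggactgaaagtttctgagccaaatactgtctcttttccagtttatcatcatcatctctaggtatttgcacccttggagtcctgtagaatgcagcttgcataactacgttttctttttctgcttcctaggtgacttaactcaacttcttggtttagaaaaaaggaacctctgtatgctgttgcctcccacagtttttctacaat
Grm7: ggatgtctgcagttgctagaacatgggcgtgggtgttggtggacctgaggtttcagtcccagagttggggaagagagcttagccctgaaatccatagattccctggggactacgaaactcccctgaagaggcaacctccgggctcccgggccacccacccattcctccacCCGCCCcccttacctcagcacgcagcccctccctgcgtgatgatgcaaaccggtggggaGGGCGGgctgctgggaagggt
Grm8: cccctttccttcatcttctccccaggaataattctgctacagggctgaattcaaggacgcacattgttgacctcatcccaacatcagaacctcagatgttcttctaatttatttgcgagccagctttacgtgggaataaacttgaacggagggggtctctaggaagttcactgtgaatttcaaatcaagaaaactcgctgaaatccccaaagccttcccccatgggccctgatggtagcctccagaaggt

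Both strands of these windows were searched for 4 sets of letters. The GC box was spelled GGGCGG. The TATA box, which places the start in many promoters, was spelled TATAAA. The cyclic AMP response element, a site of CREB, was spelled TGACGTCA. Its short form, which is contained in the full one and so overlaps it, was spelled TGACG. The Grm7 window held 2 GC boxes, starting 80 bases before the start on the minus strand and 21 bases before it on the plus strand, and none of the others. The Grm5 and Grm8 windows held none of the 4. Among 33469 RefSeq promoter windows of the same length, 30.5% held a GC box, 12.9% a TATA box, 1.59% the full cyclic AMP response element and 18.2% its short form. GC content was 36.4% for Grm5, 47.2% for Grm8 and 62.0% for Grm7, against a median of 51.2% over all windows.

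Per length of gene, Grm5 was the most abundant member, at a mean of 27.1 FPKM over the 24 libraries, followed by Grm3 at 21.7 FPKM, Grm4 at 16.8 FPKM and Grm7 at 12.1 FPKM. Grm2 at 3.49 FPKM and Grm8 at 2.44 FPKM were much lower, and rested on 64 to 530 and 63 to 271 reads per library. Grm6, a receptor of retinal bipolar cells and not a member, had 0 to 21 reads per library and was not tested. Summed over the 6 members, the level was 89.3 ± 11.9 FPKM (SD, n = 4) in Saline-Saline and 90.5 ± 2.44 FPKM in Saline-Heroin. With LPS it was 93.4 ± 11.2 FPKM in LPS-Saline and 94.3 ± 12.5 FPKM in LPS-Heroin. It was 63.5 ± 4.20 FPKM in Saline-SA and 70.2 ± 13.3 in Heroin-SA. Both SA groups had lower means than the 4 injection groups, and every Saline-SA sum, at most 68.2 FPKM, lay below every sum of the injection groups, at least 77.02 FPKM, whereas Heroin-SA reached 89.6 FPKM and overlapped all 4. When the groups were ordered by mean for each member, every pair of neighbours in the order overlapped, in all 6 members.

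**Figure D1:**
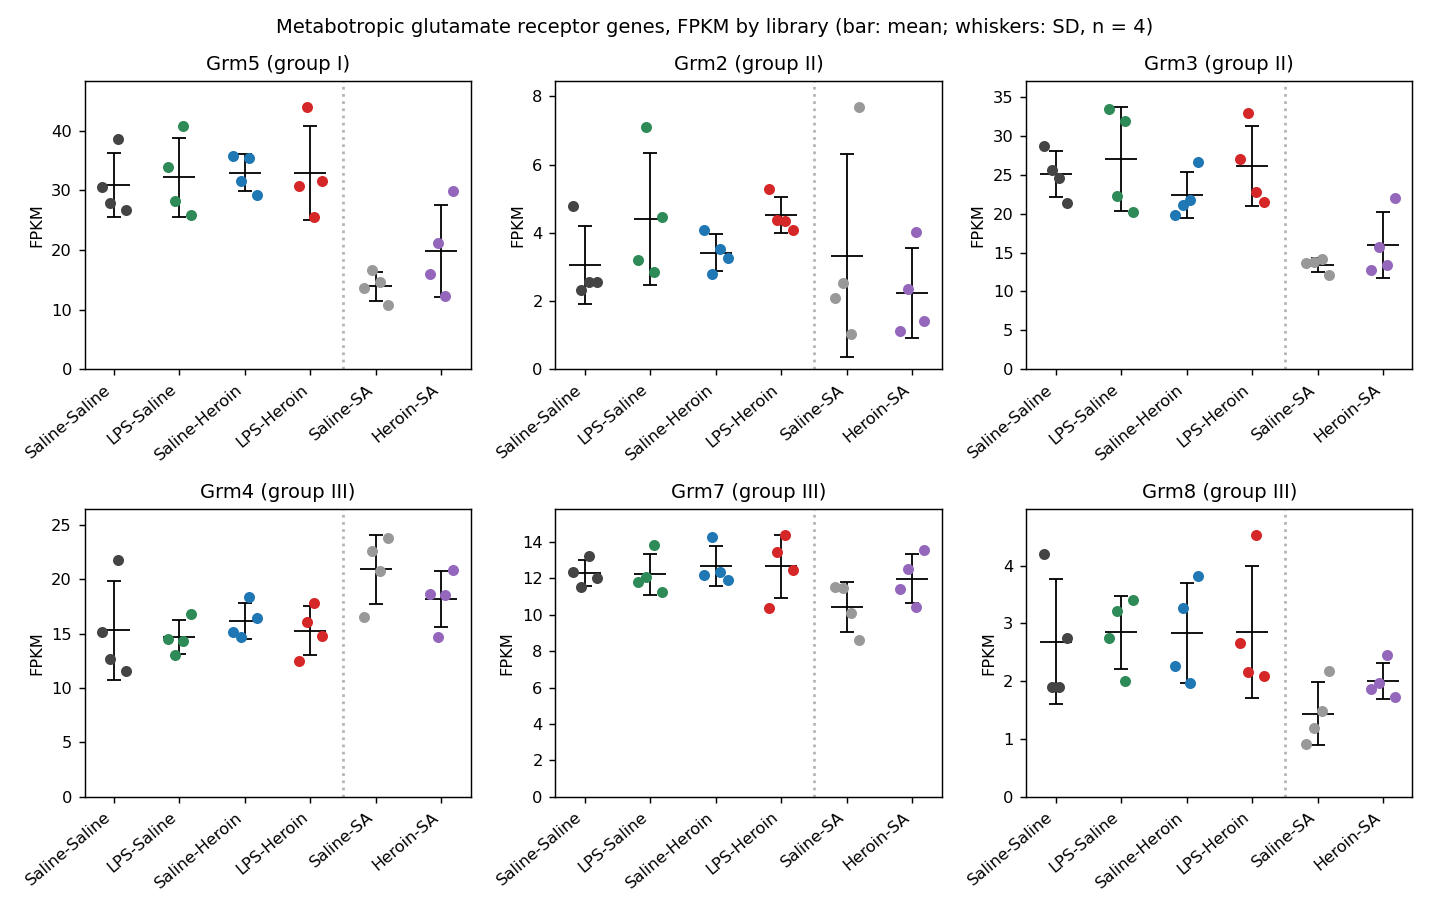
Level of each of the 6 receptor genes (FPKM, vertical axes starting at 0) in each library, by group, with the mean and SD of the 4 libraries; the dotted line separates the injection experiment from the SA experiment. Grm5, Grm3, Grm7 and Grm8 had lower means in both SA groups than in the 4 injection groups, Grm4 had higher means there, and the Grm2 libraries of Saline-SA spread from 1.02 to 7.68 FPKM.

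Of the 6 receptors, 5 were called in no comparison of the injection experiment, and Grm2 was called higher in 3 of them. A gene is called here at an unadjusted p of at most 0.05 in limma together with a fold of at least 1.3 in either direction on the log2(FPKM + 0.1) scale, the limits the study used for its patterns. In LPS-Saline against Saline-Saline, 0 of 6 members were called, where 2.36% of all 15119 genes tested were. In Saline-Heroin against Saline-Saline, 0 of 6 were called against 3.07% of all genes. In LPS-Heroin against Saline-Saline, 1 of 6 was called, Grm2, against 5.42% of all genes and 2.99% called higher. In LPS-Heroin against LPS-Saline, 0 of 6 were called against 2.29% of all genes, and in LPS-Heroin against Saline-Heroin 1 of 6 was called, again Grm2, against 2.2% of all genes and 1.2% called higher. For the LPS main effect over the 16 injected rats, 1 of 6 was called, Grm2, against 1.75% of all genes and 0.92% called higher. For the heroin main effect 0 of 6 were called against 2.45% of all genes, and for the LPS by heroin interaction 0 of 6 against 2.31%. The 3 comparisons against Saline-Saline share those 4 rats. The 3 comparisons in which Grm2 was called share the 4 LPS-Heroin rats and are not separate tests. No member reached an unadjusted p of 0.05 in the comparisons given with 0 calls, where of all genes 6.63% did in LPS-Saline against Saline-Saline, 6.57% in Saline-Heroin against Saline-Saline, 4.6% in LPS-Heroin against LPS-Saline, 8.11% for the heroin main effect and 4.02% for the interaction. In those comparisons limma-voom on the recovered reads also called 0 members. After Benjamini-Hochberg adjustment in limma, no member and no other gene had an adjusted p under 0.05 in these 8 comparisons. The median log2 fold change of the 6 members lay between -0.07 and 0.10 across them. With 4 libraries against 4, the smallest two-sided exact permutation p is 0.0286.

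**Figure D2:**
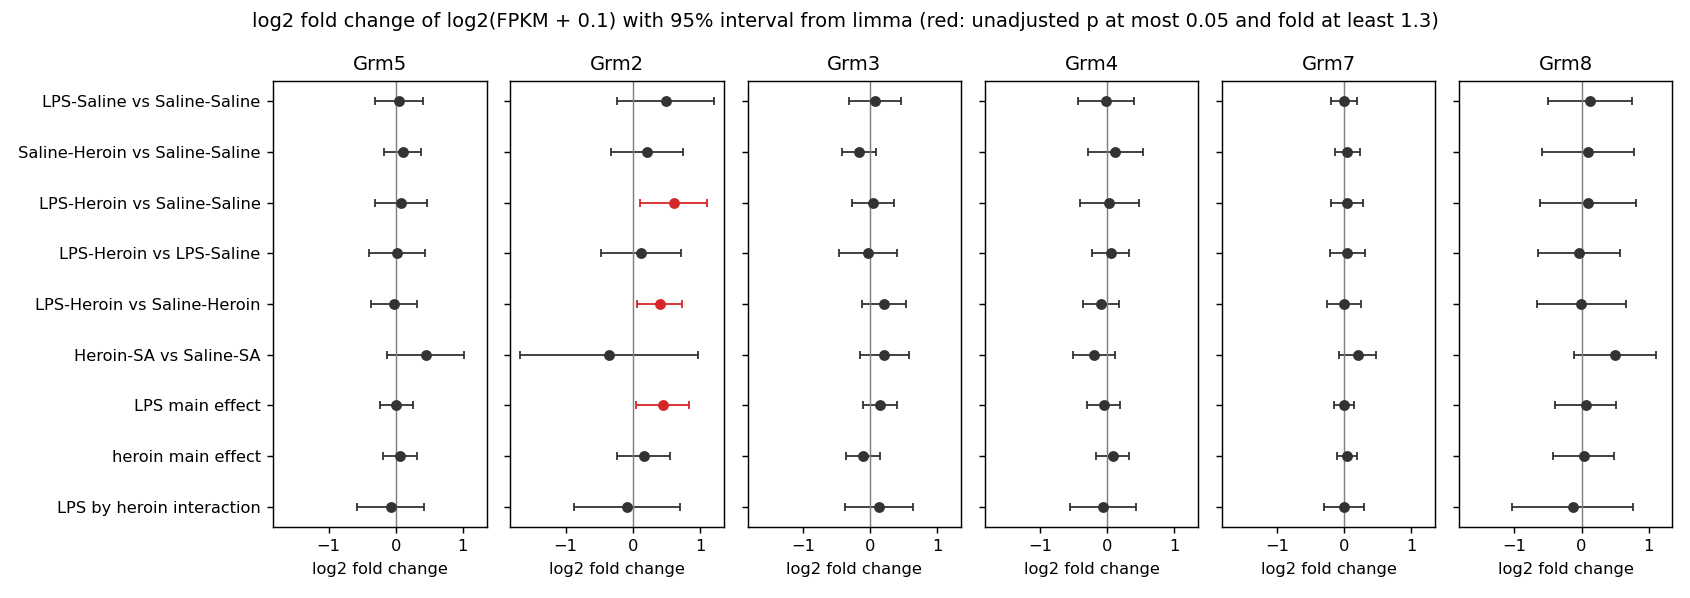
Log2 fold change of each member (horizontal axes, log2 units, with the 95% interval from limma) in 9 comparisons, one per row; red marks an unadjusted p of at most 0.05 with a fold of at least 1.3. Red points occur for Grm2 alone, in LPS-Heroin against Saline-Saline (0.61), LPS-Heroin against Saline-Heroin (0.40) and the LPS main effect (0.44), and the widest intervals belong to Grm2 and Grm8.

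Grm5, the postsynaptic group I receptor, did not differ under LPS or injected heroin beyond the spread between rats. In FPKM and in replicate order it read 30.5, 27.9, 38.7 and 26.7 in Saline-Saline, and 33.9, 28.2, 40.8 and 25.9 in LPS-Saline. It read 35.8, 31.6, 35.4 and 29.2 in Saline-Heroin and 30.7, 44.0, 25.5 and 31.5 in LPS-Heroin. All 4 groups overlapped, with means from 30.9 ± 5.40 to 33.0 ± 3.17 FPKM (SD, n = 4). The heroin main effect on Grm5 was 0.06 in log2 (95% interval -0.19 to 0.32) and the LPS main effect 0.01 (-0.24 to 0.26).

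Grm2, the group II receptor that acts as a brake on glutamate release, was higher in LPS-Heroin than in Saline-Heroin. It read 4.77, 2.32, 2.56 and 2.54 FPKM in the 4 Saline-Saline rats and 3.20, 7.12, 2.84 and 4.47 in LPS-Saline. It read 4.09, 2.80, 3.54 and 3.26 FPKM in Saline-Heroin and 5.29, 4.36, 4.34 and 4.09 in LPS-Heroin. Every LPS-Heroin rat stood above every Saline-Heroin rat, though the highest Saline-Heroin value and the lowest LPS-Heroin value both rounded to 4.09, whereas Saline-Saline replicate 1 and LPS-Saline replicate 2 stood far above the rest of their groups. Against Saline-Heroin the log2 difference was 0.40 (standard error 0.15, a fold of 1.32; unadjusted p = 0.0232 and adjusted p = 1.000 in limma; two-sided exact permutation p = 0.0286, the smallest possible). Groups without overlap occurred in 2.37% of all genes in that comparison. Against Saline-Saline it was 0.61 (standard error 0.22, a fold of 1.52; unadjusted p = 0.0229 and adjusted p = 0.344 in limma), the groups overlapped, and the two-sided exact permutation p was 0.114. The LPS main effect was 0.44 (standard error 0.19, unadjusted p = 0.0303, adjusted p = 0.730 in limma), the heroin main effect 0.17 (95% interval -0.23 to 0.56) and the interaction -0.09 (-0.88 to 0.70). In LPS-Saline against Saline-Saline the difference was 0.49 (standard error 0.32, unadjusted p = 0.162 in limma) and was not called. These calls rest on single rats. Without LPS-Heroin replicate 1, the difference was 0.53 against Saline-Saline (unadjusted p = 0.0622), 0.32 against Saline-Heroin (0.0682) and 0.40 for the LPS main effect (0.0583), and none of the 3 was called in limma. Without Saline-Saline replicate 1 the difference against Saline-Saline was 0.84 in LPS-Heroin, 0.72 in LPS-Saline and 0.44 in Saline-Heroin, and limma called all 3 (unadjusted p = 0.000262, 0.0423 and 0.0257, adjusted p = 0.343, 0.906 and 0.902).

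Cortical neurons carry abundant Grm2, and most cortical markers were called higher in 1 of the 3 comparisons in which it was called, LPS-Heroin against Saline-Saline. The 8 cortical markers, among them Slc17a7, the vesicular glutamate transporter of cortical neurons, summed to 140, 279, 98.5 and 281 FPKM in Saline-Saline and 452, 411, 358 and 422 in LPS-Heroin, with no overlap. In Saline-Heroin they summed to 439, 162, 364 and 329 FPKM and in LPS-Saline to 391, 380, 120 and 363. In LPS-Heroin against Saline-Saline, 6 of the 8 were called higher, with a median log2 difference of 1.09, and 6 of 9 septal and ventral forebrain markers were called lower. In LPS-Heroin against Saline-Heroin 1 of the 8 was called higher, and for the LPS main effect 0 were, with median log2 differences of 0.48 and 0.51. The part of cortical tissue in the Grm2 values was not tested. Saline-Saline replicate 1, with the highest Grm2 of its group, also had the highest septal sum of all libraries, 138 FPKM, and the choroid plexus sum given above.

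**Figure D3:**
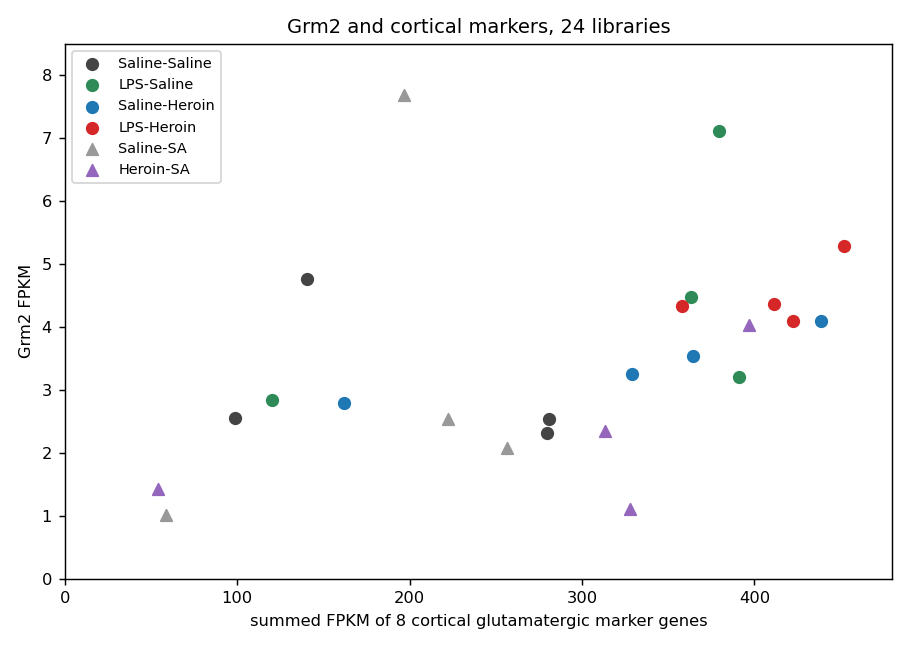
Grm2 (FPKM, vertical axis) against the summed FPKM of 8 cortical glutamatergic markers (horizontal axis), 1 point per library, circles for the injection experiment and triangles for the SA experiment. The 4 LPS-Heroin libraries lie at the right, with cortical sums from 358 to 452 FPKM and Grm2 from 4.09 to 5.29 FPKM. Saline-Heroin replicate 1, at a cortical sum of 439 FPKM and Grm2 of 4.09 FPKM, lies beside them. The highest Grm2 values, 7.68 in Saline-SA replicate 4 and 7.12 in LPS-Saline replicate 2, lie above libraries of like cortical sum.

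Grm3, the other group II receptor, which is expressed in astrocytes as well as neurons, was about as abundant as Grm5 and did not follow Grm2. It read 28.7, 25.6, 24.6 and 21.4 FPKM in Saline-Saline and 33.5, 22.3, 32.0 and 20.3 in LPS-Saline. It read 19.9, 21.2, 21.8 and 26.7 FPKM in Saline-Heroin and 27.0, 33.0, 22.8 and 21.6 in LPS-Heroin. Within LPS-Saline the values fell into a high and a low pair, and all 4 groups overlapped. The largest log2 difference among the injection groups compared was 0.21 in LPS-Heroin against Saline-Heroin (95% interval -0.12 to 0.53, unadjusted p = 0.179 in limma).

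The group III receptors, which act at nerve terminals and of which Grm4 is prominent in striatopallidal medium spiny neurons and Grm7 at the release site itself, were called in none of the injection comparisons. Grm4 had group means from 14.7 ± 1.58 FPKM in LPS-Saline to 16.2 ± 1.64 FPKM in Saline-Heroin (SD, n = 4), with the 16 libraries between 11.6 and 21.8 FPKM. Grm7 was the steadiest member, with group means from 12.2 ± 1.13 to 12.7 ± 1.09 FPKM and all 16 libraries between 10.4 and 14.4 FPKM. Its main effects had narrow intervals, -0.16 to 0.14 in log2 for LPS and -0.11 to 0.19 for heroin, so for this gene a change of 1.3-fold lay outside both. Grm8 had group means from 2.69 ± 1.084 to 2.86 ± 1.14 FPKM but spread from 1.89 to 4.53 FPKM among the 16 rats, and its interval for the heroin main effect ran from -0.42 to 0.48.

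In Heroin-SA against Saline-SA, 4 of the 6 members had higher means and 2 lower, and 0 of 6 were called by limma, where 5.44% of all 15024 genes tested were. No member reached an unadjusted p of 0.05 in limma, as 11.5% of all genes did, and limma-voom on the recovered reads called 1, Grm8. Grm5 read 13.7, 16.6, 14.6 and 10.8 FPKM in Saline-SA and 15.96, 21.2, 12.3 and 29.9 in Heroin-SA. Heroin-SA replicates 2 and 4 stood above all Saline-SA rats while replicates 1 and 3 stood among them. The log2 difference was 0.45 (standard error 0.25, unadjusted p = 0.113, adjusted p = 0.514 in limma; two-sided exact permutation p = 0.229). Without Heroin-SA replicate 3 it was 0.65 and was called (unadjusted p = 0.0182, adjusted p = 0.269 in limma), and without replicate 4 it was 0.22. Grm8 read 0.908, 1.19, 1.49 and 2.17 FPKM in Saline-SA and 1.86, 1.96, 2.45 and 1.73 in Heroin-SA, and the groups overlapped through Saline-SA replicate 4. Its log2 difference was 0.50 (standard error 0.27, unadjusted p = 0.0957 in limma, two-sided exact permutation p = 0.143), and without Saline-SA replicate 4 it was 0.71 and was called (unadjusted p = 0.0169, adjusted p = 0.473 in limma). Grm3 read 13.6, 13.8, 14.2 and 12.2 FPKM in Saline-SA and 12.7, 15.7, 13.4 and 22.0 in Heroin-SA, again with replicates 2 and 4 the highest, and its log2 difference was 0.21 (95% interval -0.15 to 0.58). Grm2 read 2.08, 2.53, 1.02 and 7.68 FPKM in Saline-SA and 1.11, 2.35, 4.03 and 1.42 in Heroin-SA. Saline-SA alone held the highest and the lowest Grm2 of all 24 libraries, and the difference, -0.36 in log2, had an interval from -1.68 to 0.97. Grm4 read 16.6, 22.6, 20.8 and 23.8 FPKM in Saline-SA and 18.7, 14.7, 18.6 and 20.9 in Heroin-SA, a log2 difference of -0.20 (95% interval -0.51 to 0.11). Grm7 read 11.5, 11.5, 10.1 and 8.64 FPKM in Saline-SA and 11.4, 12.5, 10.5 and 13.6 in Heroin-SA, a log2 difference of 0.20 (-0.08 to 0.48). Whether the effect of heroin differed between injection and SA was tested over the 16 rats of Saline-Saline, Saline-Heroin, Saline-SA and Heroin-SA, and 0 of 6 members were called against 4.38% of all genes. No member reached an unadjusted p of 0.05 there, as 6.55% of all genes did, the smallest being 0.0880 for Grm3 in limma, at a log2 difference of -0.38, and limma-voom on the recovered reads also called 0.

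Larger differences separated the experiments, even between their saline controls. Saline-SA against Saline-Saline was added after the values had been seen, and it sets rats of different surgery, housing, light cycle, procedure and time of killing side by side, which cannot be told apart. In this comparison 4 of 6 members were called, 3 lower and 1 higher, where 22.7% of all 15150 genes tested were called, 14.3% lower and 8.46% higher. By adjusted p under 0.05 in limma, 2 of 6 members passed, against 23.7% of all genes. Grm5 was 13.9 ± 2.44 FPKM in Saline-SA against 30.9 ± 5.40 FPKM in Saline-Saline (SD, n = 4), a log2 difference of -1.15 (standard error 0.15, adjusted p = 0.00147 in limma) and 2.21-fold lower. Grm3 was 13.4 ± 0.886 FPKM against 25.1 ± 3.003 FPKM, a log2 difference of -0.89 (standard error 0.10, adjusted p = 0.000593 in limma) and 1.85-fold lower. For both genes every Saline-SA rat stood below every Saline-Saline rat. The same held for Grm7, whose log2 difference of -0.24 fell short of the fold limit (unadjusted p = 0.0493, adjusted p = 0.134 in limma). Groups without overlap occurred in 28.3% of all genes. Grm8 differed by -0.85 (adjusted p = 0.0938) and Grm4 by 0.48 (adjusted p = 0.110 in limma), and each had overlapping groups and lost its call when single rats were left out, Grm8 without Saline-Saline replicate 1 or 4 or Saline-SA replicate 1 or 2, and Grm4 without any 1 of 6 of the 8 rats. Grm2 differed by -0.18 (95% interval -1.37 to 1.00). Over all 24 rats, Grm5 lay between 25.5 and 44.0 FPKM in the injection experiment and between 10.8 and 29.9 FPKM in the SA experiment, and only Heroin-SA replicate 4 reached the injected rats. For Grm3 the ranges were 19.9 to 33.5 FPKM and 12.2 to 22.0 FPKM, with the same rat alone in the overlap.

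Other measures moved with this split. Of the medium spiny neuron markers, 7 of 10 were called higher in Saline-SA than in Saline-Saline, the opposite direction to Grm5, where 8.46% of all genes were called higher and 14.3% lower. Of the oligodendrocyte markers 7 of 9 were called lower, and of the oligodendrocyte precursor markers tested 2 of 3 were called lower, while of the astrocyte markers 2 of 11 were called lower and 0 higher, a share near that of all genes. Of the endothelial markers 3 of 7 were called higher, and their sum did not overlap, at 83.7 to 109 FPKM in Saline-SA and 67.8 to 75.2 FPKM in Saline-Saline. The cortical, septal, interneuron, microglial and choroid plexus lists each had 1 or 2 calls. Genes with long spans were lower in Saline-SA as well. This was looked at after the values had been seen. The median log2 difference was 0.06 for genes under 10 kb, 0.02 for 10 to 50 kb, -0.07 for 50 to 100 kb, -0.09 for 100 to 200 kb, -0.20 for 200 to 400 kb (477 genes) and -0.49 for genes over 400 kb (159 genes). Grm3 and Grm5, in the class of 200 to 400 kb, lay below its lower quartile of -0.52. Grm8 and Grm7, over 400 kb, lay within the quartiles of their class, -0.89 and -0.11. The short genes Grm2 and Grm4 were not lower by the test used. Medians moved with span in other comparisons too. From genes under 10 kb to genes over 400 kb the median went from -0.02 to 0.14 in Heroin-SA against Saline-SA. Against Saline-Saline it went from -0.03 to 0.13 in LPS-Saline, from -0.02 to 0.11 in Saline-Heroin and from -0.01 to 0.08 in LPS-Heroin. In LPS-Heroin against LPS-Saline it went the other way, from 0.02 to -0.03. Within the SA experiment, a score for each library (the median centred log2(FPKM + 0.1) of 635 genes over 200 kb less that of 11414 genes up to 50 kb, receptors left out) was -0.05 and -0.02 in Heroin-SA replicates 2 and 4, the rats with the highest Grm5 and Grm3, and between -0.30 and -0.20 in the other 6. In the injection experiment it ran from -0.04 to 0.21. The part of span, mitochondrial share or cell make-up in the receptor values was not tested.

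**Figure D4:**
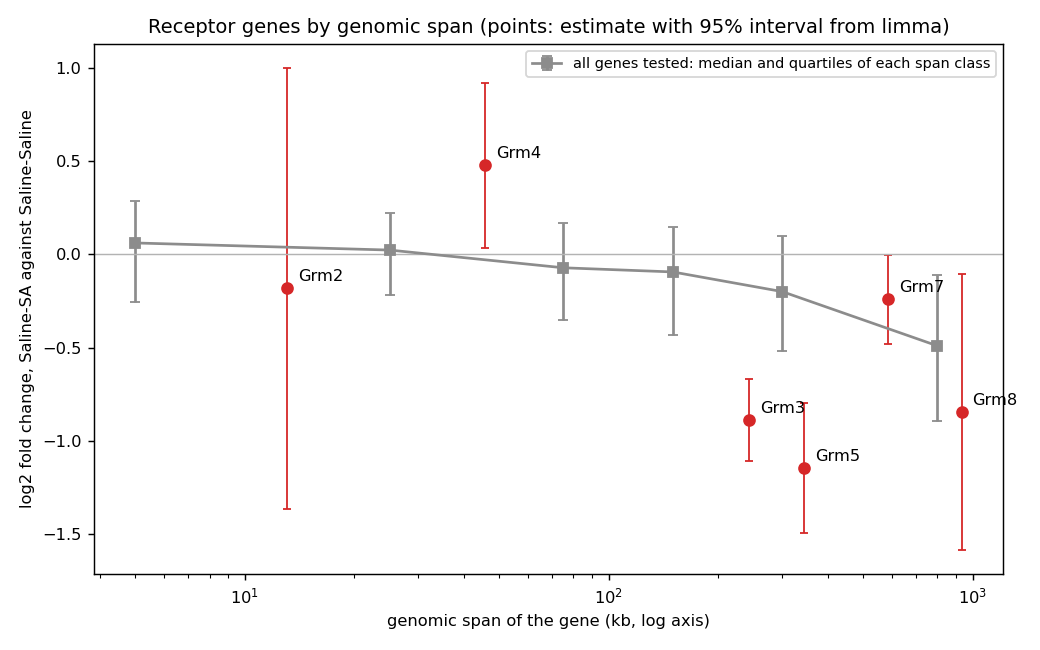
Log2 fold change in Saline-SA against Saline-Saline (vertical axis) by the genomic span of the gene (horizontal log axis, kb), with the 95% interval from limma for the 6 members (red); grey squares give the median and quartiles of all genes tested in 6 span classes, each drawn at 1 position inside its class. Grm3 and Grm5 lie below the quartiles of their class, Grm8 and Grm7 within theirs, and Grm4 above zero.

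The partners of these receptors were followed in a list of 44 genes of scaffolds, G proteins, effectors, desensitization and glutamate supply, fixed with earlier results of these data known. In the injection experiment few were called. Homer1, the scaffold of group I receptors, was called higher in LPS-Saline against Saline-Saline, 39.7 ± 3.88 against 30.3 ± 6.02 FPKM (SD, n = 4), the 1 call among the 44 (2.27%, against 2.36% of all genes). Saline-Heroin against Saline-Saline gave 2 calls (4.55%, against 3.07% of all genes), both lower, Arc (an immediate early gene that takes part in removing synaptic AMPA receptors) at 22.6 ± 10.2 against 47.4 ± 14.5 FPKM, and Elfn1, a postsynaptic partner that recruits Grm7, at 8.25 ± 2.01 against 11.6 ± 2.20 FPKM. LPS-Heroin against Saline-Saline gave 3 calls higher and 2 lower, a share of 11.4% against 5.42% of all genes. The higher ones were the cortical marker Slc17a7, Rgs4 (which shortens G protein signals) and Itpr1 (a calcium release channel downstream of group I), with log2 differences of 1.22, 0.58 and 0.44, and the lower ones were Elfn1 (-0.53) and Slc17a6 (-0.97), a glutamate transporter that is itself on the septal list. For the heroin main effect 4 of 44 were called (9.09%, against 2.45% of all genes), of which Arc (-1.24), Elfn1 (-0.39) and Slc17a6 (-0.74) were lower and Slc17a7 (0.67) higher. Arc was also the 1 gene called in LPS-Heroin against LPS-Saline (-1.30 in log2, unadjusted p = 0.0235, adjusted p = 0.977 in limma), 2.27% of the list against 2.29% of all genes. It read 33.3 ± 29.3 against 64.8 ± 12.8 FPKM, and the groups overlapped, at 12.1 to 76.5 FPKM in LPS-Heroin and 49.1 to 77.2 FPKM in LPS-Saline. In LPS-Heroin against Saline-Heroin, for the LPS main effect and for the interaction, 0 of 44 were called in limma. No adjusted p of the list was under 0.05 in these comparisons.

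In Heroin-SA against Saline-SA, 7 of the 44 partners were called, 6 higher and 1 lower, a share of 15.9% against 5.44% of all genes, and none had an adjusted p under 0.05 in limma. Group I partners were among those called higher: Homer1 at 20.2 ± 5.10 against 13.4 ± 3.36 FPKM (SD, n = 4), Itpr1 at 42.2 ± 7.95 against 27.8 ± 5.99 FPKM and Prkca, a protein kinase C, at 7.85 ± 2.19 against 5.30 ± 0.513 FPKM. Slc1a2, the main astrocytic glutamate transporter, read 49.6 ± 19.6 against 28.1 ± 1.63 FPKM, and Rgs4 and Rimkla, an enzyme that makes the Grm3 agonist N-acetylaspartylglutamate, differed by 0.40 and 0.42 in log2. Arc was lower, 31.6 ± 8.56 against 45.0 ± 6.00 FPKM. In the test of injection against SA, 1 of the 44 partners was called, Rimkla, a share of 2.27% against 4.38% of all genes (-0.51 in log2, adjusted p = 0.691 in limma). In Saline-SA against Saline-Saline, 15 of the 44 were called lower and 1 higher, a share of 36.4% against 22.7% of all genes. By adjusted p under 0.05 in limma, with no limit on the fold, 14 of the 44 were lower and 1 higher, where 23.7% of all genes passed. The 2 sets of lower genes differ. Itpr1, Elfn1, Plcb4 and Slc17a6 were called lower at adjusted p of 0.071, 0.053, 0.122 and 0.084 in limma, and some genes that passed adjustment fell short of the fold limit. Slc1a2 was 28.1 ± 1.63 against 98.5 ± 25.9 FPKM (-1.77 in log2), Prkca 5.30 ± 0.513 against 16.9 ± 2.20 (-1.65), Gnaq, the G protein of group I, 12.96 ± 1.64 against 35.6 ± 1.40 (-1.46), Homer1 13.4 ± 3.36 against 30.3 ± 6.02 (-1.19) and Gnai1, a G protein of groups II and III, 49.5 ± 6.93 against 93.4 ± 8.41 (-0.92). Dagla, which makes the endocannabinoid released after group I activation, was the 1 called higher (0.40).

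The genes most like each member were sought among 11732 protein-coding genes by Pearson's r of log2(FPKM + 0.1) over the 24 libraries, a description in which libraries of a group share their treatment and the experiments stand apart. Grm5 was most like Ppp1r9a (r = 0.98, Spearman's rho = 0.90), Tulp4 and Anks1b (both r = 0.97), and for Ppp1r9a r was 0.80 over the 16 injected rats and 0.99 over the 8 SA rats. Grm3 was most like Gpm6b (r = 0.96, rho = 0.90), Atrn and Hhip (both r = 0.95), and for Gpm6b r was 0.87 and 0.89 within the experiments. Grm2 had its nearest genes farther off, such as Col5a1 (r = 0.76, rho = 0.69) and Fabp7 (r = 0.75). For Col5a1 r was 0.62 over the injected rats and 0.82 over the SA rats, and for Fabp7 it was 0.39 and 0.91, and 0.59 over all rats without the 2 libraries farthest from the median of Grm2. Grm4 was most like Dlx5 (r = 0.80, rho = 0.73), Pdlim7 and Phospho2 (both r = 0.79), and for Dlx5 r was 0.60 and 0.84 within the experiments. Grm7 was most like Nedd4, Arhgef17 (both r = 0.82) and Abl1 (r = 0.80), and Grm8 like Trhde (r = 0.88, rho = 0.88), Cpne9 (r = 0.81) and Ugcg (r = 0.80). Within the injection and SA experiments r was 0.58 and 0.92 for Nedd4 and 0.77 and 0.85 for Trhde. Among the members themselves, with group means removed, Grm5 varied together with Grm3 (r = 0.70) and Grm7 (r = 0.59) and opposite to Grm8 (r = -0.59), and the remaining 12 pairs lay between -0.45 and 0.46. These values differed between the experiments. Within the injection and SA experiments, with group means kept, r of Grm5 was 0.50 and 0.91 with Grm3, 0.34 and 0.89 with Grm7, and -0.63 and -0.07 with Grm8.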

How the data were processed

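RNA of the NAc was measured in 24 libraries of polyadenylated RNA. Per the submitters' processing notes, fastp, HISAT2, featureCounts and build rn6 were used, and their versions are not given in the sources used here. The authors deposited FPKM for 32545 genes. FPKM times gene length gave whole reads for 100% of non-zero values (tolerance 0.01), and depth limits the low genes Grm2 and Grm8. Groups came from the labels, and the 4 libraries per group held here were used where the methods name more. Limma 3.58.1 in R 4.3.3 took log2(FPKM + 0.1) for genes averaging 0.5 FPKM or more across the libraries under test, a scale that understates changes of low genes. Main effects and the interaction used the 16 injected rats. P-values were adjusted over all genes tested, and means were also compared by exact permutation. Named genes were all 6 members, Grm6, listed partners that were called, and the 3 genes most like each member. Some results under this rule are not reported here. Members and lists were chosen with earlier results of these data known, and Saline-SA against Saline-Saline and the span classes were added after values were seen. Same-numbered replicates did not pair (median r = 0.01 over 60 pairs of libraries, 5 over 0.1). Markers Neurod2, Pecam1 and Otx2 were not used here, and Npy was listed at 0 in 20 libraries. Replicates of a group differed by 7.26 to 32.0 in chi-square per gene over 36 pairs, so none was a duplicate. The fit was tested on simulated reads. Each result was recomputed with pseudocounts of 0.01 and 1, with the filter dropped or raised to 1 FPKM, by quantile normalization, by limma-voom on recovered reads, with all 24 libraries in one fit, with the replicate block, by adjusted p, and without each library.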

Additional observations from a re-analysis of the deposited data

Results flagged for a closer look

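Grm2 in Saline-Saline replicate 1, at 4.77 FPKM, stood apart from the other 3 rats of its group, which read 2.32, 2.56 and 2.54 FPKM. Its gap to the nearest of them was 0.902 of the range of the group, above Dixon's limit for 4 samples. It was the 1 such value in 36 combinations of member and group, and chance alone marks about 1 in 20. The same library had the highest choroid plexus sum (334 FPKM) and septal sum (138 FPKM) of all 24, and their part in its Grm2 value was not tested. The log2 differences of Grm2 from Saline-Saline without this library are given with the Grm2 results.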

How the results depend on the processing

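Across the alternatives no called receptor changed direction. The number of members called in LPS-Heroin against Saline-Saline was 0 with all 24 libraries in one fit and by adjusted p, and 0 to 1 with a library left out. In LPS-Heroin against Saline-Heroin and for the LPS main effect it was 0 with a pseudocount of 1, with all 24 libraries in one fit and by adjusted p, and 0 to 1 with a library left out. Grm2 lost its call against Saline-Heroin without Saline-Heroin replicate 2 or LPS-Heroin replicate 1, against Saline-Saline without Saline-Saline replicate 2, 3 or 4 or LPS-Heroin replicate 1, and for the LPS main effect without any of these or LPS-Saline replicate 2 or 4. In Heroin-SA against Saline-SA it was 1 by limma-voom and 0 to 1 with a library left out. It was also 0 to 1 with a library left out in LPS-Saline and in Saline-Heroin against Saline-Saline, and in the test of injection against SA, where Grm3 was called without Saline-Heroin replicate 4 (-0.47) or Heroin-SA replicate 1 (-0.48) and Grm4 without Saline-Saline replicate 3 (0.50). In Saline-SA against Saline-Saline it was 2 by adjusted p and 2 to 4 with a library left out, and Grm3 and Grm5 kept their calls in every one of these fits. The cause of these changes was not tested. With the replicate number as a block, the count of members called was the same in every comparison, such as 1 in LPS-Heroin against Saline-Saline and 4 in Saline-SA against Saline-Saline. Scaling moved the median of all genes by at most 0.06 in log2. Grm2 and Grm8, with as few as 64 and 63 reads in a library, carry the widest intervals.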
